A study of Homo sapiens with 12 samples.

Results

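Messenger RNA of 8 transcription factors of the lung and foregut endoderm, NKX2-1, FOXA1, FOXA2, GATA6, HNF4A, CEBPA, KLF5 and SOX9, was examined in 2 human lung cancer lines. A member was taken as the probe set whose annotation names that gene and no other. This gave 7 genes with 1 probe set each, among 16939 genes tested, and HNF4A was not analysed here. The lines were HTB56, also known as Calu-6, and A549, a lung adenocarcinoma line. H3R and A3R were HTB56 and A549 cells after 3 rounds of in vivo selection, which the submitters describe as raising the tendency of intravenously injected cells to form nodules in mouse lungs, and H0R and A0R were the unselected lines. Each of the 4 groups had 3 Affymetrix whole-transcript arrays, 12 in all, of total RNA labelled with biotin, and the labels give every group as untreated with 5-azacytidine. Each line stands for 1 tumour, and the labels do not say whether a selected line came from 1 mouse or from pooled ones.

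FOXA1 and FOXA2 are pioneer factors, which bind sites in closed chromatin and let other factors in, and with GATA6 they act at the start of endoderm development. NKX2-1 marks the lung, though not the lung alone, among endodermal organs. It drives surfactant genes together with CEBPA, while HNF4A drives liver and gut genes. KLF5 acts in the proliferating airway and gut epithelium, and SOX9 marks the tips of the branching lung bud as well as cartilage.

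Values are log2 RMA signals, so a difference of 1 is a 2-fold difference, and levels of different genes cannot be compared. Array medians lay between 5.55 and 5.67. Arrays of 1 group correlated across probe sets at r = 0.988 to 0.995, and arrays of the 2 lines at 0.949 to 0.961. A gene was called where limma's p, adjusted by Benjamini-Hochberg over all genes tested, was below 0.05. Precision is limited by having 3 arrays in a group. No label says that replicates were separate cultures, so a p-value here covers the spread of these samples and no more. A0R replicate 2 stood apart from the other A549 arrays. Over 12 genes that were bright in HTB56 and dim in A549 its median was 0.84 above the A549 median, against -0.13 to 0.03 for the other 5 A549 arrays, and comparisons with A0R are therefore also given without it. Epithelial identity genes (EPCAM, KRT7, KRT8, KRT18, KRT19 and CDH1) averaged 8.42 to 8.56 in H3R, 8.39 to 8.58 in H0R, 10.69 to 10.82 in A3R and 10.76 to 10.89 in A0R. All 6 were called lower in H0R than in A0R, against 20.3% of all genes. In H3R against A3R 5 were lower, against 19.7% of all genes. CDH1, which encodes the epithelial adhesion protein E-cadherin, stood at 4.5 in H3R, 4.55 in H0R, 8.68 in A3R and 9.53 in A0R.

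**Figure D1:**
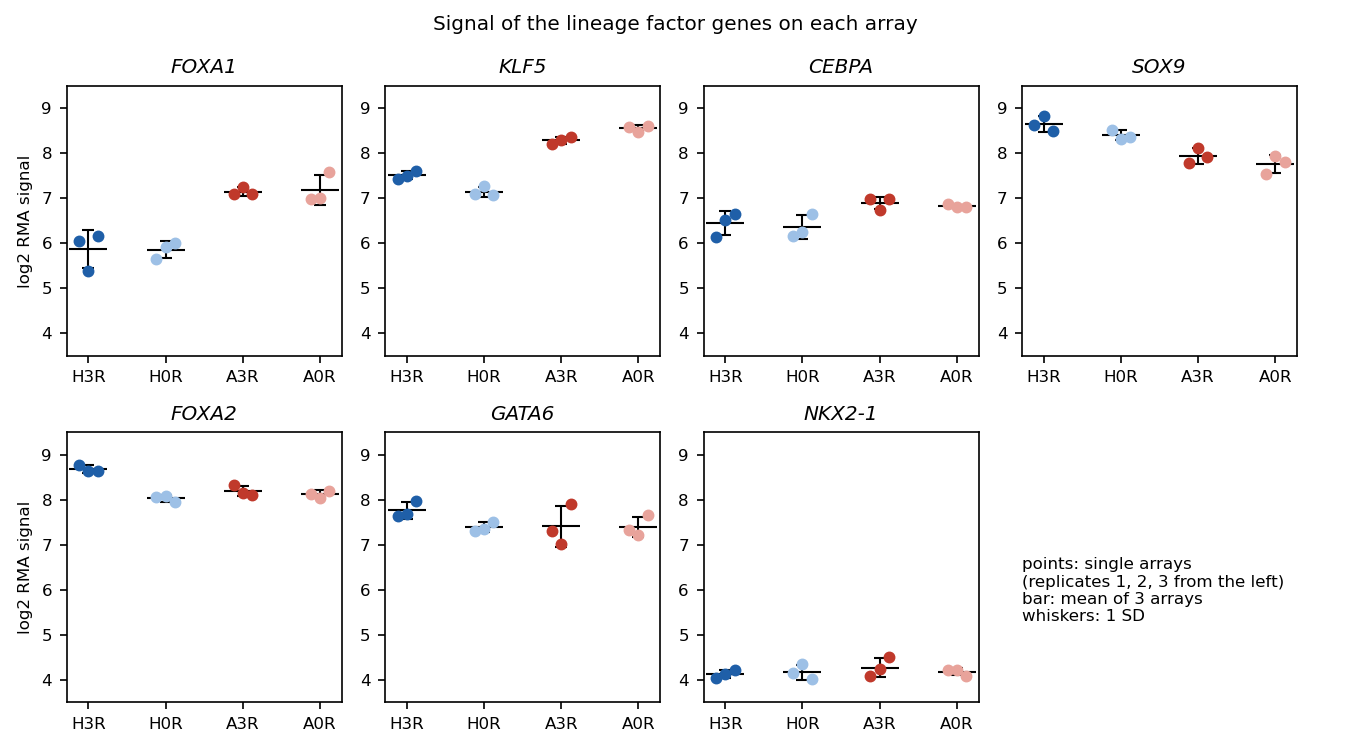
Log2 RMA signal of each of the 7 lineage factor genes on each of the 12 arrays, with the mean and 1 SD of the 3 arrays of a group. FOXA1 and KLF5 sit lower on every HTB56 array than on every A549 array, SOX9 sits higher, and FOXA2 stands highest in H3R.

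The first question was which factors distinguish the lines before selection. In unselected HTB56 cells FOXA1, KLF5 and CEBPA mRNA were lower than in unselected A549 cells, and SOX9 mRNA was higher. FOXA2, GATA6 and NKX2-1 were not called. The 4 called members were 57.1% of the 7, against 45.2% of all genes tested, so the count itself lies near the background of these lines. Arrays of the 2 groups did not overlap for 4 members, against 53.2% of all genes. In bulk RNA, fewer cells of a type and less RNA per cell cannot be told apart.

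FOXA1 had signals of 5.66, 5.92 and 6.01 on the H0R arrays, against 6.99, 7.02 and 7.58 on the A0R arrays. All H0R arrays lay below all A0R arrays, and the mean was 2.52-fold lower (log2 difference -1.33, SE 0.19, limma adjusted p = 4.21e-05). KLF5 read 7.09, 7.28 and 7.08 in H0R, against 8.59, 8.48 and 8.60 in A0R. This was the largest difference among the members before selection, 2.66-fold lower in H0R (log2 difference -1.41, SE 0.10, limma adjusted p = 1.7e-08). CEBPA, a C/EBP factor that drives terminal differentiation in lung, liver and blood, read 6.16, 6.25 and 6.66 in H0R, against 6.87, 6.81 and 6.81 in A0R. The groups did not overlap, although H0R replicate 3 came close to A0R, and the mean was 1.39-fold lower (log2 difference -0.47, SE 0.15, limma adjusted p = 0.0163). The CEBPA call was lost without H0R replicate 1 (adjusted p = 0.0828) or replicate 2 (0.0629).

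The promoters of these 3 factors that were lower together are shown as 300 bases each, 250 before and 50 after the transcription start, from RefSeq on GRCh38.p14. The FOXA1 window is chr14:37595200-37595499 and the CEBPA window chr19:33302485-33302784, both on the minus strand. The KLF5 window is chr13:73058755-73059054 on the plus strand, the more GC-rich of 2 starts listed for KLF5. Capitals mark matches, on either strand, to short motifs of the members' own families.
FOXA1: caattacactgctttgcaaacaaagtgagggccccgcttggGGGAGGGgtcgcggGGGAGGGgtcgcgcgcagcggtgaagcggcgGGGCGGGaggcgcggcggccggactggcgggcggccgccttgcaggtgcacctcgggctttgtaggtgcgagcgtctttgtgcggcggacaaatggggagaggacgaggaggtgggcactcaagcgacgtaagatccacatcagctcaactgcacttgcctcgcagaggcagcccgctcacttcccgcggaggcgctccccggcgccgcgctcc
CEBPA: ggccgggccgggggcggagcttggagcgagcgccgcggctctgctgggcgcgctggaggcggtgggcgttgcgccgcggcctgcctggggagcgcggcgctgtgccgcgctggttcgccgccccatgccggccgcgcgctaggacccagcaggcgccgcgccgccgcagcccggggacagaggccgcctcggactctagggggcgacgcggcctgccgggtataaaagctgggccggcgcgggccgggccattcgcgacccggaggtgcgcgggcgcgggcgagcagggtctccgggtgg
KLF5: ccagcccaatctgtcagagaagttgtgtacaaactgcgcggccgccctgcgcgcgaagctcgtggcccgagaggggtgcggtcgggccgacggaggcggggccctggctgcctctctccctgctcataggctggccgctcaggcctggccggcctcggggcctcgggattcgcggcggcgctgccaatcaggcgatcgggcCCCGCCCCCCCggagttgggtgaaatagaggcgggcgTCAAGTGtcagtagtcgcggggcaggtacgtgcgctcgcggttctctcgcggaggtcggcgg
A FOXA-type motif was searched as TGTTTAC, which 3.42% of the 35116 promoters of the table hold. For the GATA type the letters were AGATAA, held by 10.3% of promoters. The NKX2 type was CACTTGA, held by 2.48%. The C/EBP type was TTGCNNAA, held by 10.5%. The KLF type was CCCNCCC, held by 54.1%. The SOX type was AACAAT, held by 10.1%. Matches that overlapped were each counted. The FOXA1 window holds 3 KLF-type matches, all on the strand opposite to the one printed. The KLF5 window holds 2 KLF-type matches that overlap and 1 NKX2-type match, and the CEBPA window holds no match to any of the 6 motifs. All 3 windows are rich in CpG, with 34 CpG dinucleotides in FOXA1, 50 in CEBPA and 37 in KLF5, against a median of 14 over all promoters. Their GC content is 69.3% in FOXA1, 80.7% in CEBPA and 71.3% in KLF5, against a median of 58.7%. For KLF5 this follows from the choice of start. The other KLF5 window holds 4 CpG dinucleotides at 40.7% GC, both below the medians, with 1 SOX-type match and no KLF-type match. No methylation or binding was measured at these windows.

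SOX9 ran the other way. Its signals were 8.53, 8.33 and 8.36 in H0R, against 7.54, 7.94 and 7.81 in A0R, with no overlap. The mean was 1.56-fold higher in H0R (log2 difference 0.64, SE 0.13, limma adjusted p = 0.000929). FOXA2 read 8.06, 8.09 and 7.95 in H0R, against 8.13, 8.04 and 8.21 in A0R, and the groups overlapped (log2 difference -0.09, 95% interval -0.31 to 0.12, limma adjusted p = 0.48). GATA6 averaged 7.39 ± 0.11 in H0R and 7.41 ± 0.22 in A0R (SD, n = 3 each), a log2 difference of -0.01 with an interval of -0.42 to 0.39 (limma adjusted p = 0.964). On GATA6 the third replicate was the highest of its group in all 4 groups.

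NKX2-1 lay near background throughout. It read 4.05, 4.14 and 4.23 in H3R, 4.15, 4.35 and 4.02 in H0R, 4.08, 4.24 and 4.5 in A3R, and 4.23, 4.22 and 4.09 in A0R. These signals lay at the 29.8th percentile of their arrays on average in H3R, the 30.9th in H0R, the 31.9th in A3R and the 30.6th in A0R, above the filter at the 20th percentile, which was a signal of 3.48. No comparison called NKX2-1. Between the unselected lines its log2 difference was -0.01 (95% interval -0.27 to 0.26), and at such a level RMA compresses differences.

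Leaving out A0R replicate 2 kept the same 4 members called between the unselected lines. The log2 differences H0R minus A0R were then -1.42 for FOXA1 (limma adjusted p = 0.000127), -1.45 for KLF5 (1.54e-07), -0.48 for CEBPA (0.0367) and 0.73 for SOX9 (0.000893).

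After selection the lines differed in the same 4 factors and in FOXA2. The 5 called members were 71.4% of the 7, against 44.6% of all genes, and arrays did not overlap for 5 members, against 51.6% of genes. These groups share no array with the unselected ones, but they were fitted with 1 common estimate of the spread. FOXA1 read 6.06, 5.39 and 6.16 in H3R, against 7.09, 7.26 and 7.10 in A3R, 2.43-fold lower (log2 difference -1.28, SE 0.19, limma adjusted p = 6.72e-05). KLF5 read 7.44, 7.50 and 7.61 in H3R, against 8.21, 8.31 and 8.36 in A3R, 1.72-fold lower (log2 difference -0.78, SE 0.10, limma adjusted p = 1.17e-05). Neither gene had overlapping groups, and H3R replicate 2 was the lowest FOXA1 reading of the 12 arrays.

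SOX9 read 8.63, 8.84 and 8.50 in H3R, against 7.79, 8.13 and 7.92 in A3R, 1.64-fold higher (log2 difference 0.71, SE 0.13, limma adjusted p = 0.000394). CEBPA read 6.15, 6.53 and 6.66 in H3R, against 6.99, 6.75 and 6.98 in A3R (log2 difference -0.46, SE 0.15, limma adjusted p = 0.0193). The CEBPA groups did not overlap, yet its call was lost without A3R replicate 1 (adjusted p = 0.0629), A3R replicate 3 (0.0583) or H3R replicate 1 (0.111). FOXA2 read 8.78, 8.64 and 8.64 in H3R, against 8.33, 8.16 and 8.12 in A3R, 1.40-fold higher (log2 difference 0.48, SE 0.10, limma adjusted p = 0.000921). GATA6 read 7.65, 7.68 and 7.98 in H3R, against 7.30, 7.03 and 7.92 in A3R, where replicate 3 overlapped H3R. Its log2 difference of 0.35 was not called (SE 0.19, limma adjusted p = 0.15). It was called with the replicate number as a block (0.0228), a fit that called 52.7% of all genes, and without A3R replicate 3, where the difference was 0.60 (0.00488).

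**Figure D2:**
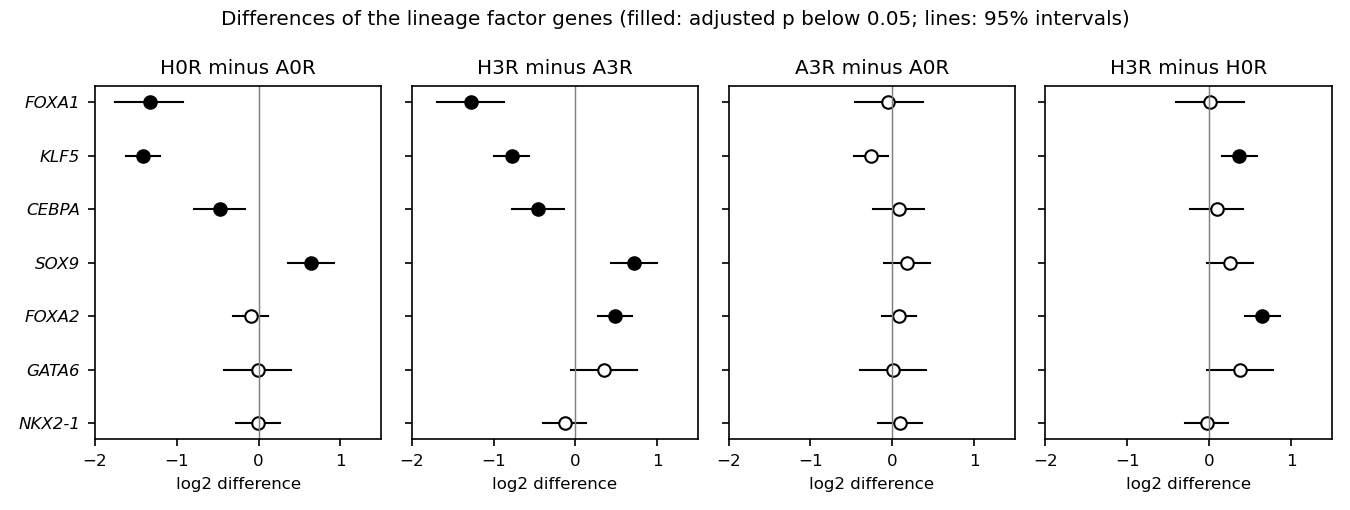
Log2 differences of the 7 lineage factor genes (horizontal axis) in 4 comparisons, with 95% intervals, filled where limma's adjusted p was below 0.05. FOXA1, KLF5, CEBPA and SOX9 were called in both comparisons of HTB56 with A549, and FOXA2 and KLF5 were called in H3R minus H0R.

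The next question was whether selection changed the factors within a line. In A549 limma called 0 of the 7 members in A3R against A0R, where 1.75% of all genes were called. At an unadjusted p below 0.05 there was 1 member, KLF5, against 9.97% of all genes, and the fit with the replicate block called 0, against 3.32%. KLF5 read 8.21, 8.31 and 8.36 in A3R, against 8.59, 8.48 and 8.60 in A0R. These arrays did not overlap, as was so for 1 member and for 12.7% of all genes, and the log2 difference was -0.26 (SE 0.10, 95% interval -0.47 to -0.05, limma adjusted p = 0.31).

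SOX9 averaged 7.94 ± 0.17 in A3R and 7.77 ± 0.20 in A0R (SD, n = 3 each), a log2 difference of 0.18 with an interval of -0.10 to 0.46. FOXA1 averaged 7.15 ± 0.10 in A3R and 7.20 ± 0.33 in A0R, with an interval of -0.46 to 0.37 for the difference. FOXA2 averaged 8.20 ± 0.11 in A3R and 8.13 ± 0.08 in A0R, with an interval of -0.13 to 0.29. In each of these genes the 2 groups overlapped. GATA6 averaged 7.42 ± 0.46 in A3R and 7.41 ± 0.22 in A0R, CEBPA 6.91 ± 0.14 in A3R and 6.83 ± 0.04 in A0R, and NKX2-1 4.27 ± 0.21 in A3R and 4.18 ± 0.08 in A0R. The intervals of these 3 differences reached from -0.39 to 0.41 for GATA6, from -0.24 to 0.39 for CEBPA and from -0.17 to 0.36 for NKX2-1. Without A0R replicate 2 the count stayed at 0, with -0.30 for KLF5 (limma adjusted p = 0.342) and 0.27 for SOX9 (0.635).

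In HTB56, FOXA2 and KLF5 mRNA rose with selection, and 0 members fell. The 2 called members were 28.6% of the 7, against 19.5% of all genes, and the replicate block added GATA6 to make 3, against 28% of all genes in that fit. FOXA2 read 8.78, 8.64 and 8.64 in H3R, against 8.06, 8.09 and 7.95 in H0R. The lowest H3R array lay well above the highest H0R array, and the mean was 1.57-fold higher (log2 difference 0.65, SE 0.10, 95% interval 0.44 to 0.87, limma adjusted p = 0.000264). A larger absolute difference was seen for 7.5% of the genes tested.

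KLF5 read 7.44, 7.50 and 7.61 in H3R, against 7.09, 7.28 and 7.08 in H0R, again with no overlap. The rise was 1.29-fold (log2 difference 0.37, SE 0.10, limma adjusted p = 0.0147). It was lost without H0R replicate 1 (adjusted p = 0.063), H0R replicate 3 (0.0562) or H3R replicate 3 (0.0649). GATA6 read 7.65, 7.68 and 7.98 in H3R, against 7.31, 7.35 and 7.52 in H0R. Its arrays did not overlap either, and the log2 difference of 0.38 (SE 0.19) had a limma adjusted p of 0.209, or 0.0305 with the replicate block. In all, arrays did not overlap for 3 members, against 34.3% of all genes.

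SOX9 averaged 8.66 ± 0.17 in H3R and 8.40 ± 0.11 in H0R (SD, n = 3 each), a log2 difference of 0.25 with an interval of -0.03 to 0.53 (limma adjusted p = 0.229). FOXA1 averaged 5.87 ± 0.41 in H3R and 5.86 ± 0.18 in H0R, with an interval of -0.41 to 0.42. CEBPA averaged 6.45 ± 0.27 in H3R and 6.36 ± 0.26 in H0R, with an interval of -0.23 to 0.41. All 3 genes had overlapping groups. The comparisons H0R minus A0R and H3R minus H0R share the H0R arrays, as H3R minus A3R shares H3R with H3R minus H0R.

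The change with selection differed between the lines for FOXA2 and KLF5. Limma's interaction term, the HTB56 change minus the A549 change, was 0.58 for FOXA2 (SE 0.14, 95% interval 0.28 to 0.87, adjusted p = 0.0139), from log2 changes of 0.65 in HTB56 and 0.08 in A549. For KLF5 it was 0.63 (SE 0.14, 95% interval 0.34 to 0.93, adjusted p = 0.00767), from changes of 0.37 in HTB56 and -0.26 in A549. These were 2 of 7 members, against 11.8% of all genes, and both were called under every one of the 20 settings run for this term, among them the replicate block, where 20.4% of all genes were called. GATA6 had a term of 0.37 (SE 0.27, adjusted p = 0.47). FOXA1, CEBPA, SOX9 and NKX2-1 were not called.

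Ordered by group mean, FOXA1 ran H0R (5.86), H3R (5.87), A3R (7.15), A0R (7.20), and only the step between the lines exceeded the spread. KLF5 ran H0R (7.15), H3R (7.52), A3R (8.30), A0R (8.56), where the A549 step was not called. SOX9 ran A0R (7.77), A3R (7.94), H0R (8.40), H3R (8.66), where the steps within each line were not called. FOXA2 ran H0R (8.03), A0R (8.13), A3R (8.20), H3R (8.69), and only H3R stood apart from its neighbour.

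The 10 nearest tested genes on each side of a member, in the order of the RefSeq table, were read beside it, as a description of the region around it. On chromosome 20, 6 of the 20 neighbours of FOXA2 were called higher in H3R than in H0R and 0 lower, against 8.57% and 10.9% of all genes, and 0 were called in A549. RIN2, a guanine nucleotide exchange factor for RAB5, averaged 9.21 in H3R and 7.92 in H0R (log2 difference 1.30, limma adjusted p = 6.4e-07). GZF1, a zinc finger repressor, averaged 8.38 in H3R and 7.37 in H0R (1.01, 2.5e-05). The other 4, named after their values were seen, were NAA20 (0.97), XRN2 (0.86), KIZ (0.65) and NXT1 (0.62). Between them lay neighbours that were not called, including the 3 nearest on either side of FOXA2. Several of these were dim, where RMA compresses differences. In H3R and H0R, PAX1 averaged 4.83 and 4.71, NKX2-2 5.19 and 5.05, SSTR4 4.62 and 4.56, and CD93 4.27 and 4.24. NKX2-4 (7.97 and 7.95) and THBD (6.23 and 6.17) were brighter.

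KLF5 moved against its nearest tested neighbours on chromosome 13. The 3 nearest tested genes before it and the 2 nearest after it were all called lower in H3R than in H0R, while KLF5 was called higher. PIBF1, a centrosomal protein gene, averaged 6.72 in H3R and 8.43 in H0R (log2 difference -1.71, limma adjusted p = 9.15e-07). KLF12, a repressor of the same zinc finger family, averaged 7.88 in H3R and 8.98 in H0R (-1.10, 2.27e-05). TBC1D4 (-1.05), DIS3 (-0.97) and BORA (-0.94), named after their values were seen, completed the 5. Of all 20 neighbours these 5 were called lower and 0 higher, against 10.9% and 8.57% of all genes. The median over the 20 was -0.09. The same 5 genes were higher in H0R than in A0R, by 3.46 for KLF12, 2.41 for PIBF1, 1.99 for TBC1D4, 1.91 for BORA and 1.64 for DIS3, where KLF5 had -1.41. Of all 20 neighbours 8 were called higher and 4 lower there, against 24.9% and 20.3% of all genes, with a median of -0.01. Among the lower ones, PCDH9 (-3.6) and SCEL (-1.84) went the same way as KLF5. Since H3R minus H0R and H0R minus A0R share the H0R arrays, opposite signs are not separate evidence.

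Around CEBPA on chromosome 19, 11 of 20 neighbours were called lower in H0R than in A0R and 0 higher, with a median log2 difference of -0.34, against 20.3% and 24.9% of all genes and a median of -0.01. In H3R against A3R, 8 were lower and 0 higher, against 19.7% and 24.9% of all genes. CEBPG, a C/EBP family gene beside CEBPA that was named after its values were seen, averaged 8.06 in H0R and 8.62 in A0R (log2 difference -0.56, limma adjusted p = 0.000238). With selection in HTB56, CEBPA-DT, the divergent transcript of CEBPA, averaged 4.5 in H3R and 4.02 in H0R (0.49, 0.0427), and LRP3, a lipoprotein receptor family gene, averaged 7.38 in H3R and 7.81 in H0R (-0.43, 0.0107). The LRP3 call was lost without H3R replicate 1 (adjusted p = 0.0564), and the CEBPA-DT call was lost without any single HTB56 array other than H0R replicate 3 (up to 0.153, without H0R replicate 2).

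Around SOX9 on chromosome 17, 3 of 20 neighbours were higher and 7 lower in H3R than in H0R, against 8.57% and 10.9% of all genes. KCNJ2, a potassium channel gene and the nearest tested one before SOX9, averaged 5.15 in H3R and 6.17 in H0R (log2 difference -1.02, limma adjusted p = 0.00036). WIPI1, an autophagy gene, averaged 7.04 in H3R and 8.03 in H0R (-1.0), but 8.25 in A3R and 7.42 in A0R (0.82, limma adjusted p = 0.00283). Around GATA6 on chromosome 18, 4 of 20 were higher and 0 lower in H3R than in H0R, among them CABLES1 (0.47) and RMC1 (0.41). The CABLES1 call was lost without H0R replicate 1 (adjusted p = 0.097), H0R replicate 2, H3R replicate 1 or H3R replicate 3, and the RMC1 call without most single arrays (up to 0.208, without H0R replicate 2). NKX2-1 and FOXA1 lie near each other on chromosome 14 and share the only neighbour called with selection, PAX9, a factor of foregut pouches, which averaged 7.03 in H3R and 6.27 in H0R (0.76, limma adjusted p = 0.000404).

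**Figure D3:**
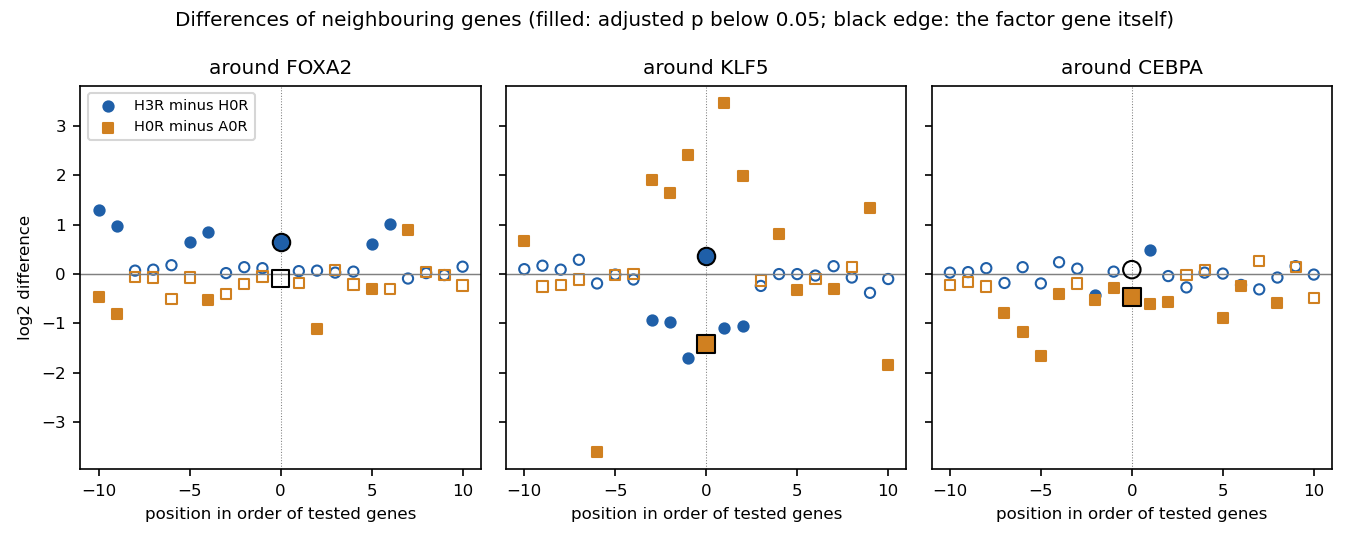
Log2 differences (vertical axis) of the 10 nearest tested genes on each side of FOXA2, KLF5 and CEBPA, by position in gene order (horizontal axis), filled where limma's adjusted p was below 0.05. The 3 nearest genes before KLF5 and the 2 nearest after it lie below 0 in H3R minus H0R. They lie above 0 in H0R minus A0R, opposite to KLF5 at position 0 in both.

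For the 2 members whose group means spanned at least 1 on the log2 scale, FOXA1 (1.33) and KLF5 (1.41), the genes with the most similar centred profiles over the 12 arrays were found. The likeness was the root mean square difference between profiles. For FOXA1 these were SLC44A3 (0.14), MICU3 (0.15) and NAAA (0.18). For KLF5 they were RNPEP (0.10), ABHD15 (0.10) and NRBP1 (0.11). The 12 arrays come from 2 lines, so a like profile is mostly a like difference between lines.

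Genes known as products of these factors were then counted, beginning with lung epithelial products. In unselected cells 1 of 23 tested was higher and 3 were lower in HTB56, 17.4% in all against 45.2% of all genes. MUC5B, an airway mucin, averaged 5.60 in H0R and 7.41 in A0R (log2 difference -1.81, limma adjusted p = 3.47e-05), and the lysosomal protease gene CTSH averaged 5.79 in H0R and 6.57 in A0R (-0.78, 2.88e-05). RTKN2, found in alveolar type 1 cells, averaged 7.03 in H0R and 4.90 in A0R (2.13, 1.61e-07). With selection, CTSH rose in HTB56 (0.55, 0.00232) and RTKN2 fell (-0.72, 0.011), a call lost without H3R replicate 2 (0.0549). In A549 limma called 0, with 1 higher at an unadjusted p below 0.05 and 1 higher with the replicate block.

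Between the selected lines 1 lung product was higher and 4 were lower in H3R, 21.7% against 44.6% of all genes. The counts were 1 higher and 2 lower without H3R replicate 2, and 2 higher and 6 lower without H3R replicate 3. Among the 4 was ABCA3, the lipid transporter of surfactant-storing bodies (6.99 in H3R and 7.51 in A3R, log2 difference -0.52, limma adjusted p = 0.00556). The surfactant protein genes, named after their values were seen, were not called in any comparison. SFTPB averaged 5.13 in H3R, 5.05 in H0R, 4.97 in A3R and 5.01 in A0R. SFTPC averaged 5.47 in H3R, 5.33 in H0R, 5.76 in A3R and 5.37 in A0R.

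Liver products, many of them known HNF4A, FOXA and C/EBP targets, were lower in unselected HTB56 than in unselected A549 for 19 of 37 tested genes and higher for 0, with a median log2 difference of -0.37. The 19 were 51.4% of the list, against 20.3% of all genes called lower and 45.2% called in either direction. APOH, an apolipoprotein gene, averaged 3.66 in H0R and 7.99 in A0R (-4.33, limma adjusted p = 7.16e-12), and TM4SF4, a tetraspan membrane protein gene of liver and gut, averaged 5.01 in H0R and 10.14 in A0R (-5.13, 2.11e-11). CPS1, the first enzyme of the urea cycle, averaged 5.51 in H0R and 10.42 in A0R (-4.91, 7.57e-11). Between the selected lines 12 were lower and 0 higher, with a median of -0.18. This was 32.4% of the list, against 44.6% of all genes called in either direction and 19.7% lower.

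With selection in A549, 6 liver products fell and 1 rose, against 0.809% and 0.945% of all genes. Under the filter at the 40th percentile, which tests 21 liver products and not 37, 3 fell and 1 rose. The coagulation factor V gene F5 fell by 2.65 on the log2 scale (limma adjusted p = 4.68e-07), and FGB, a fibrinogen chain gene, fell by 1.88 (0.00153). ADH6, an alcohol dehydrogenase gene, fell by 1.81 (0.0011), from 5.02 in A0R to 3.21 in A3R. Its means in A3R, H3R (2.85) and H0R (2.89) all lay below the filter's 3.48, so its A0R signal brought it into the test. Its fall, counted among the 6, is therefore not independent of the filter. The same holds for its lower call in H0R than in A0R. CPS1 rose, with 11.75 in A3R and 10.42 in A0R (1.33, 0.00265). In HTB56 CPS1 was the only liver product called, averaging 7.62 in H3R and 5.51 in H0R (2.11, 4.96e-06). The replicate block also called TM4SF4, lower in H3R (-0.39, adjusted p = 0.048), as did the fit of only the arrays compared (0.0375), and array weights called 3 higher and 0 lower.

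Gut and stomach products rose with selection in HTB56 for 5 of 20 tested genes and fell for 0, 25% against 19.5% of all genes, and 7 rose with the replicate block. AGR2, a disulfide isomerase of mucus-producing cells, averaged 8.51 in H3R and 5.68 in H0R (log2 difference 2.83, limma adjusted p = 4.53e-07). TSPAN8, a tetraspanin, averaged 6.36 in H3R and 3.54 in H0R (2.82, 4.83e-08), and the secreted trefoil peptide gene TFF1 averaged 7.81 in H3R and 6.06 in H0R (1.75, 1.02e-05). In A549, 4 rose and 0 fell, 20% against 1.75% of all genes. Only 2 rose without A0R replicate 1, A3R replicate 1 or A3R replicate 3. They included the membrane mucin gene MUC13, which averaged 9.59 in A3R and 8.14 in A0R (1.45, 0.00719). Before selection 7 of the 20 were lower in H0R than in A0R and 0 higher, 35% against 45.2% of all genes, led by CDH17, an intestinal cadherin, with 3.99 in H0R and 9.24 in A0R (-5.25, 3.99e-11).

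**Figure D4:**
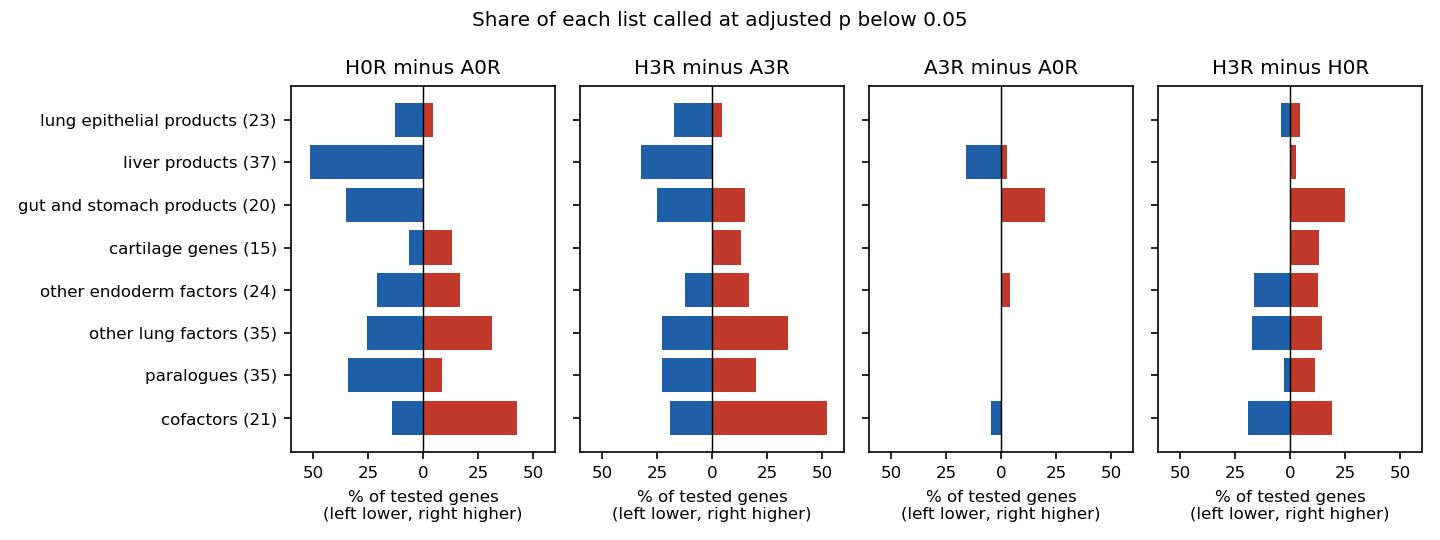
Percent of the tested genes of each list (number in brackets) called lower (left) or higher (right) in 4 comparisons at a limma adjusted p below 0.05. Liver products are called only lower in HTB56 than in A549 (19 of 37 before and 12 of 37 after selection), and gut and stomach products only higher with selection in both lines.

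Cartilage genes, many of them SOX9 targets, were called higher for 2 and lower for 1 of 15 tested in H0R against A0R, 20% against 45.2% of all genes, where SOX9 was higher. Several of the list were dim in every group, where RMA compresses differences. Group means ran from 4.26 to 4.42 for ACAN, 4.53 to 4.71 for COL9A1 and 4.62 to 4.86 for MATN1. COL9A3 was brighter (7.18 to 7.36) and was not called either. The low share is therefore no reading of SOX9 activity. In H3R against A3R 2 were higher and 0 lower, 13.3% against 44.6% of all genes, or 5 higher with the replicate block. In A549 limma called 0 with selection, as it did with the replicate block and at an unadjusted p below 0.05. In HTB56 2 rose and 0 fell with selection, 13.3% against 19.5% of all genes, and these calls were lost without H0R replicate 1.

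Among 24 other endoderm factors, 4 were higher and 5 lower in H0R than in A0R, 37.5% against 45.2% of all genes, and the lower count ran from 2 to 8 over the settings tried. SOX2, a foregut and airway factor, averaged 9.01 in H0R and 5.70 in A0R (log2 difference 3.31, limma adjusted p = 3.58e-09). HHEX, a factor of foregut and liver bud, averaged 10.47 in H0R and 9.07 in A0R (1.40, 3.52e-08), and NR5A2, a nuclear receptor of liver and pancreas, averaged 5.45 in H0R and 7.95 in A0R (-2.50, 4.36e-09). PROX1, which acts in liver and lymphatic vessels, was higher in H0R (1.70, 3.07e-06). With selection in HTB56, 3 rose and 4 fell, 29.2% against 19.5% of all genes, or 2 fell without H3R replicate 1. SOX2 averaged 7.34 in H3R and 9.01 in H0R (-1.67, 3.27e-05), HHEX 9.09 in H3R and 10.47 in H0R (-1.38, 3.48e-07), SALL4, an embryonic zinc finger factor, rose (1.11, 3.56e-05), and the T-box factor TBX3 rose (0.70, 0.000184). In A549 only SOX2 was called, with 6.60 in A3R and 5.70 in A0R (0.90, 0.0322), a call lost without A0R replicate 1 (0.102), A0R replicate 2 (0.062) or any single A3R array. The replicate block called 2 higher and 1 lower in A549, and there HNF4G had 0.53 (adjusted p = 0.0388) and TBX3 -0.37 (0.0332).

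Of 35 other lung factors, 11 were higher and 9 lower in H0R than in A0R, 57.1% against 45.2% of all genes. EHF and ELF3, epithelial ETS factors, were far lower, with 3.79 in H0R and 7.64 in A0R for EHF (log2 difference -3.85, limma adjusted p = 1.57e-09) and 5.24 in H0R and 8.91 in A0R for ELF3 (-3.68, 7.03e-10). SPDEF, a factor of goblet cells, was lower too (-1.99, 2.93e-06). FOXP1, a forkhead repressor of lung development, averaged 8.86 in H0R and 6.80 in A0R (2.06, 6.57e-10). With selection in HTB56, 5 rose and 6 fell, 31.4% against 19.5% of all genes. NFIA rose (0.87, 0.000211) while NFIB, its paralogue in lung maturation, fell (-0.89, 0.000524), and ETV5, a factor of FGF signalling at the lung bud tip, fell (-1.04, 2.58e-05). In A549 limma called 0 of the 35, 0 with the replicate block, and 5 (3 higher, 2 lower) where the unadjusted p was below 0.05.

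Paralogues of the members were lower for 12 and higher for 3 of 35 tested in H0R against A0R, 42.9% against 45.2% of all genes, or 13 and 6 with the replicate block, which called 53.7% of all genes. GATA3, a T cell and breast factor of the GATA family, averaged 8.24 in H0R and 5.97 in A0R (log2 difference 2.27, limma adjusted p = 1.45e-08), where GATA6 was not called. FOXA3, the third FOXA gene, averaged 5.66 in H0R and 6.08 in A0R (-0.41, 0.00748), and KLF13 (-1.52, 1.01e-08) and CEBPD (-0.81, 5.65e-05) were lower as well. HNF4G, the paralogue of HNF4A, averaged 4.90 in H3R and 4.36 in H0R (0.54, 0.00907). In A549 limma called 0, 1 with the replicate block, and 4 (2 in each direction) where the unadjusted p was below 0.05.

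Of 21 cofactors and regulators, 9 were higher and 3 lower in H0R than in A0R, 57.1% against 45.2% of all genes. TRIB2, a pseudokinase that directs degradation of C/EBP alpha protein, averaged 9.0 in H0R and 4.68 in A0R (log2 difference 4.31, limma adjusted p = 1.53e-12), and 8.14 in H3R and 4.48 in A3R. WWP1, a ubiquitin ligase that acts on KLF5 protein, averaged 8.61 in H0R and 9.48 in A0R (-0.87, 1.39e-05). In HTB56 4 rose and 4 fell with selection, 38.1% against 19.5% of all genes, or 1 rose and 4 fell without H3R replicate 1. TLE4, a Groucho corepressor, averaged 5.80 in H3R and 8.0 in H0R (-2.20, 2.18e-06), and ZFPM2, a GATA cofactor, averaged 4.95 in H3R and 4.17 in H0R (0.78, 0.000343). The single call in A549 was PPARGC1A, a coactivator of HNF4A, with 4.52 in A3R and 5.64 in A0R (-1.12, 0.000461).

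Without A0R replicate 2, the counts in H0R minus A0R were 16 liver products lower and 0 higher, 7 gut and stomach products lower and 0 higher, and 3 lung products lower and 1 higher. Cartilage genes had 2 higher and 1 lower, other endoderm factors 4 higher and 2 lower, and other lung factors 9 higher and 8 lower. Paralogues had 3 higher and 9 lower, cofactors 8 higher and 3 lower, and the neighbours of CEBPA 0 higher and 10 lower. In A3R minus A0R 5 liver products then fell and 1 rose, 4 gut and stomach products rose and 0 fell, and 0 of the other endoderm factors were called. Of the genes chosen for naming, 59 of 61 called in H0R minus A0R stayed called, HNF4G and ZFPM2 being lost, and 11 of 12 in A3R minus A0R, SOX2 being lost.

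Markers of other cell types also differed between H3R and H0R, where 8.57% of all genes were called higher and 10.9% lower. Of 8 neuroendocrine markers 4 fell and 0 rose, and their mean per array was 5.41 to 5.61 in H3R, 6.90 to 7.0 in H0R, 5.38 to 5.50 in A3R and 5.39 to 5.47 in A0R. Of 9 fibroblast markers 4 rose and 0 fell, with means of 6.03 to 6.17 in H3R, 5.37 to 5.65 in H0R, 5.21 to 5.40 in A3R and 5.06 to 5.21 in A0R. Of 10 leukocyte markers 2 rose and 0 fell in HTB56, 20% of the list, close to the 19.5% of all genes. LYZ, which is also on the gut list, was among them (5.54 in H3R and 3.87 in H0R). Limma called 0 of 8 endothelial markers with selection in either line, and the replicate block likewise 0. At an unadjusted p below 0.05 there was 1 in HTB56, where 28.9% of all genes passed, and 0 in A549. EPCAM, an epithelial adhesion gene, averaged 7.34 in H3R and 6.32 in H0R (log2 difference 1.02, limma adjusted p = 0.00588), while KRT7, a keratin of simple epithelia, averaged 8.90 in H3R and 9.81 in H0R (-0.91, 0.000278). These 2 were the only epithelial identity genes of 6 called with selection in HTB56 in the main fit. KRT8 was also called, higher by 0.26, with the replicate block (limma adjusted p = 0.0434), other eBayes settings (0.0332) or array weights (0.0406). KRT19 was called lower without H3R replicate 3 (-0.46, limma adjusted p = 0.0225). The part of these markers in the changes of FOXA2 and KLF5 was not tested.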

How the data were processed

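The deposited table holds log2 signals of 33297 probe sets on 12 arrays, which the authors computed by RMA (per the submitters' processing notes, in Affymetrix Expression Console). For neither is a version given in the sources used here, nor is a genome build. RMA gives all arrays 1 distribution, which removes a uniform shift of all mRNA and compresses differences of dim genes. Groups come from the labels, whose description field spells A549 in another way. Platform annotation names 1 gene for 19460 probe sets and several for 1754, and leaves 12083 unnamed. 19429 Entrez identifiers matched the RefSeq gene table of GRCh38.p14, and 0 symbols were updated.

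Probe sets above the 20th percentile of their array on at least 3 arrays were kept, and a gene's value was that of its probe set with the highest mean. All comparisons came from 1 limma 3.58.1 fit in R 4.3.3 over 12 arrays (lmFit and eBayes, two-sided, Benjamini-Hochberg over 16939 genes, threshold 0.05), tested on simulated data. Python 3.11.15 with pandas 2.3.3 made the tables, and matplotlib 3.10.9 the plots. The members and the lists were chosen with earlier results of these data known. Named genes were up to 3 called per list, comparison and direction, the 3 closest profiles, and up to 2 neighbours per member.

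Groups share replicate numbers, whose meaning the labels do not give. Deviations from group means correlated at 0.16 to 0.549 between arrays of the same number and at -0.417 to 0.204 otherwise. Arrays of the same number thus tended to deviate together, although the ranges overlap. A pairing is inferred from the data only, so the main fit leaves it out and the replicate block is given beside it. Alternatives were the replicate block, the filter, the probe set, 2 scalings, the arrays fitted, the eBayes settings, array weights and leaving out each array.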

Additional observations from a re-analysis of the deposited data

Results flagged for a closer look

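Listed here are the members, and the genes named above, whose change with selection differed between the lines. The measure was limma's interaction term at an adjusted p below 0.05, which was so for 11.8% of all genes. Called genes of the lists that were not named above are left out. Among these are the neuroendocrine markers CHGB (-3.95) and CHGA (-3.1) and the fibroblast marker COL1A1 (1.56). Each value in brackets is the log2 change in HTB56 minus the log2 change in A549. Among the members these were FOXA2 (0.58) and KLF5 (0.63). Of the genes around FOXA2, the terms were positive for RIN2 (1.04), GZF1 (1.06), NAA20 (0.97), XRN2 (0.91), KIZ (0.51) and NXT1 (0.58). Around KLF5 they were negative for KLF12 (-1.46), PIBF1 (-1.70), DIS3 (-1.05), BORA (-1.0) and TBC1D4 (-1.47), and near SOX9 for WIPI1 (-1.82). Genes with profiles like that of KLF5 also differed, RNPEP (0.52), ABHD15 (0.44) and NRBP1 (0.59). Of the products, the term was positive for F5 (2.67), FGB (1.90), ADH6 (1.76), AGR2 (2.25), TSPAN8 (1.99) and LYZ (1.58) and negative for RTKN2 (-0.99) and MUC13 (-1.30). F5, FGB and ADH6 were called lower in A3R than in A0R and were not called in HTB56. Their HTB56 signals were already near background, with F5 at 3.95 in H3R and 3.94 in H0R. FGB stood at 4.02 in H3R and 4.0 in H0R, and ADH6 at 2.85 in H3R and 2.89 in H0R. A fall there could hardly show, so these terms cannot tell whether the lines respond differently. CDH1, also called lower in A3R than in A0R, was likewise low in HTB56, at 4.5 in H3R and 4.55 in H0R. Some genes that fell in HTB56 were in turn low in A549. CHGA stood at 4.77 in A3R and 4.76 in A0R, and CHGB at 5.21 in A3R and 4.88 in A0R. TRIB2 stood at 4.48 in A3R and 4.68 in A0R, and RTKN2 at 5.17 in A3R and 4.9 in A0R. A fall in A549 could hardly show for them, so their negative terms are limited in the same way. Of other factors, the term was positive for SALL4 (1.10), TBX3 (1.07), NFIA (1.23) and PAX9 (0.69) and negative for SOX2 (-2.57), HHEX (-1.34), ETV5 (-1.22) and NFIB (-0.91). Of the cofactors it was negative for TRIB2 (-0.65) and TLE4 (-2.33) and positive for ZFPM2 (1.03), and of the epithelial genes it was positive for CDH1 (0.81), EPCAM (1.44) and KRT8 (0.48) and negative for KRT7 (-0.80) and KRT19 (-1.43). The terms of RTKN2, MUC13, TRIB2, CDH1, KRT8, KIZ, NXT1, RNPEP and ABHD15 were no longer called when at least 1 single array was left out.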

How the results depend on the processing

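Over 21 alternative settings, 12 of which left out 1 array, 13 member differences were called in the fit as reported, and 10 of them were called under every setting run. The interaction was run under 20, since it needs all 4 groups. Of 723 recomputed member differences 0 called values changed sign, 8 lost their call (KLF5 in H3R minus H0R, CEBPA between the lines) and 4 gained it (GATA6). Leaving out single arrays gave 1 to 2 called members in H3R minus H0R, where 2491 to 3432 of all 16939 genes were called. With the replicate block 4 members were called in H0R minus A0R, against 53.7% of all genes, and 6 in H3R minus A3R, against 52.7%. That fit called 0 in A3R minus A0R, against 3.32%, 3 in H3R minus H0R, against 28%, and 2 in the interaction, against 20.4%. Over all settings 3 to 4 members were called in H0R minus A0R, 4 to 6 in H3R minus A3R and 0 in A3R minus A0R. The fits with the fewest and most calls, each of 16939 genes, called 6705 and 9093 genes in H0R minus A0R. They called 6656 and 8933 in H3R minus A3R, and 179 and 562 in A3R minus A0R. Over all genes the block moved the count called in A3R minus A0R to 562, against 297, and the interaction to 3458, against 2000. A fit of only the arrays compared gave 179 in A3R minus A0R, as did leaving out A0R replicate 1. The stricter filter at the 40th percentile tested 21 liver products, against 37. It left 12 of 21 lower in H0R than in A0R, against 19 of 37. In A3R against A0R it left 3 of 21 lower, against 6 of 37. The signal of NKX2-1 is near background, which limits any statement on this lung factor.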
